A study of Mus musculus with 8 samples.

Results

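The 10 genes described here encode chemokines, the small secreted proteins that set the direction in which leukocytes move. They were chosen by name (Ccl1, Ccl3, Ccl4, Ccl5, Ccl9, Ccl20, Ccl22, Xcl1, Cxcl10 and Cxcl16), and all 10 were present among the 49490 genes of one table and the 55291 genes of the other. RNA sequencing of polyadenylated transcripts was done on mouse CD8+ T cells, the cytotoxic class of T cell, taken from spleens and lymph nodes. In the first experiment, cells labelled TRIM28 knockout (Trim28-/-) were compared with cells labelled WT that carried the floxed allele (Trim28fl/fl), after activation in culture. In the second, WT cells were stimulated through CD3 and CD28 for 3 days, and cells that also received an antibody against the T cell growth factor IL-2 (blocked) were compared with cells that did not (untreated). Each of the 4 groups had 2 libraries. The Cre line, strain, age and sex of the mice, and the stimulus and duration in the first experiment, are not given in the sources used here. Nor is it said whether the libraries of a group came from different mice or cultures, so p-values reflect only the scatter between libraries, which could be technical.

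The libraries held between 13222831 and 17069569 reads assigned to genes. Trim28 itself stood at 415 and 458 normalised reads in the knockout libraries, against 4262 and 4323 in control libraries, which matches the labels. The RNA came from cells with high Cd8a, the defining CD8 chain, at 4154 to 7217 normalised reads over the 8 libraries, while Cd4 lay at 0 to 9.55. Among lists of markers of other cells, the 6 NK cell markers summed to at most 22.9 in any library. Single genes of the other lists were well expressed, with Ighm of the B cell list at 1538 to 4452, H2-Ab1 and Zbtb46 of the dendritic cell list at 19.1 to 722 and 143 to 456, Pecam1 of the endothelial list at 201 to 995, and Cd40lg of the CD4 list at 41.4 to 455.

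Chemokines act through receptors coupled to G proteins on the cells they attract, and each ligand has its own set of receptors. Activated CD8+ T cells are a well-known source of CCL3, CCL4, CCL5 and XCL1, which are released along with cytotoxic granules and cytokines and recruit monocytes, dendritic cells and further T cells. CXCL10 is known as a product of cells exposed to interferon, and it attracts T cells that carry CXCR3. IL-2 signals through STAT5 in activated T cells and sustains effector differentiation, and TRIM28 is a co-repressor brought to chromatin by zinc finger proteins.

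In Trim28 knockout cells, 6 of the 10 ligand genes fell (Ccl3, Ccl4, Ccl5, Ccl9, Ccl20 and Cxcl10), 2 rose (Ccl1 and Xcl1) and 2 did not pass the test (Ccl22 and Cxcl16). Calls rest on limma's adjusted p staying under 0.05, and by that rule 28.2% of the 15415 genes tested fell in the knockout and 32.9% rose. With IL-2 blocked, 10 of the 10 fell, where 28.9% of the 13978 genes tested fell and 31.4% rose. At least a 2-fold decrease was reached by 2 of the 10 in the knockout and by 8 of the 10 with blockade, against 6.42% and 10% of all genes tested. These counts include Ccl20 in the knockout and Ccl22 with blockade. Each reached the filter only through the control or untreated libraries, which favoured a fall. The median log2 fold change of the 10 was -0.48 in the knockout and -1.66 with blockade, while the medians of all genes tested were 0.031 and 0.018. Large shares of all genes were called in either direction, 61.0% in the knockout and 60.3% with blockade, so a call alone sets a gene little apart. Knockout and control libraries did not overlap for 9 of the 10, with 2 higher (43.4% of all genes tested) and 7 lower (38.9%), and blocked libraries lay below untreated ones for 10 of 10 (38.2%). Log2 fold changes and their tests are on the log2 (value + 1) scale, which understates the change of weakly expressed genes, while decreases and increases given as N-fold or in percent are ratios of the group means of normalised reads. In bulk RNA of this kind, fewer cells making a transcript and less transcript per cell cannot be told apart.

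**Figure D1:**
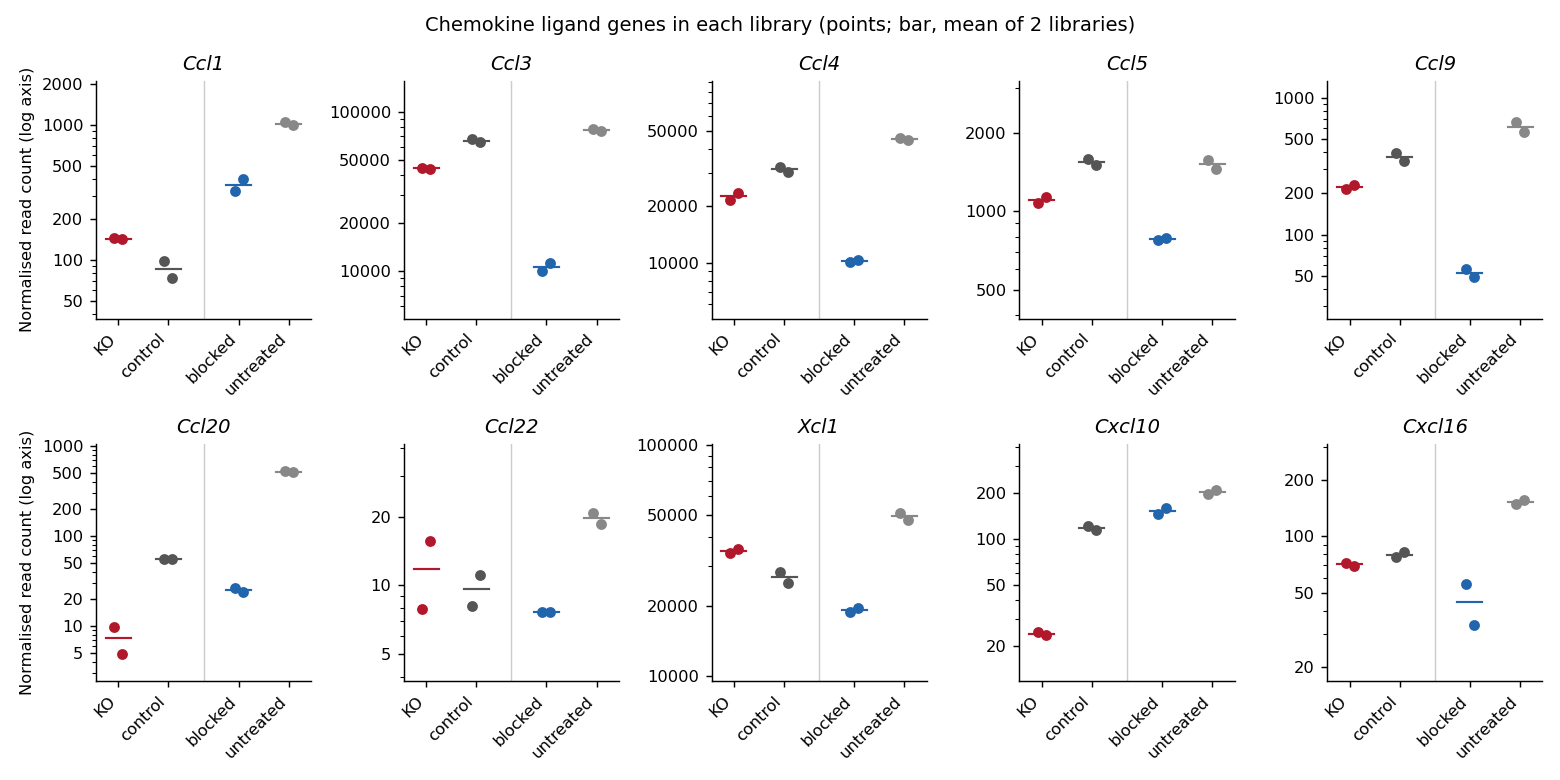
Normalised read count (log axis, a different range in each panel) of the 10 chemokine ligand genes in the 2 libraries of each group, shown as points with a bar at their mean. KO is the Trim28 knockout, and the grey line parts the 2 experiments. Blocked libraries lie below untreated ones for all 10 genes, while knockout libraries lie above control ones for Ccl1 and Xcl1 and overlap them for Ccl22.

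The sequence just before the start site is shown for Cxcl10, Ccl20, Ccl9 and Ccl3, the most abundant ligand of control and untreated cells. Ccl3 was itself a strong responder to blockade (log2 fold change -2.85), where Cxcl10 fell the least of the 10 (-0.42). Whether the matches go with the size of the changes was not tested. Each line holds the 250 bases upstream of the start site, 5′ to 3′ along the gene's own strand, from RefSeq on GRCm38.p6. Promoters of 7 of the 10 genes were at hand. Capitals mark matches on either strand to a TATA box (TATAAA), the core of the interferon-stimulated response element (GAAA, any 2 bases, then GAAA again), an AP-1 site (TGANTCA) or the NF-kB consensus.
Cxcl10 (fell more in the knockout than with blockade, chr5:92348890-92349139, - strand): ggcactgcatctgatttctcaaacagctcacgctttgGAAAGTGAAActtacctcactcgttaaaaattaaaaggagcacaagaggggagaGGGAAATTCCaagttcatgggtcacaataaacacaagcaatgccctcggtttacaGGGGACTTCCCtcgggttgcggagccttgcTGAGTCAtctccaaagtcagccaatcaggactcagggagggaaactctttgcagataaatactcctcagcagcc
Ccl20 (fell the most with blockade, chr1:83116516-83116765, + strand): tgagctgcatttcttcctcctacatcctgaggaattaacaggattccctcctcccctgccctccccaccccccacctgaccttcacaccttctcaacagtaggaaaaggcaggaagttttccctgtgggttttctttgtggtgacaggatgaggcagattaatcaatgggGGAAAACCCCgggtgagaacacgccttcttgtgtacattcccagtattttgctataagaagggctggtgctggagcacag
Ccl9 (fell second most with blockade, chr11:83578637-83578886, - strand): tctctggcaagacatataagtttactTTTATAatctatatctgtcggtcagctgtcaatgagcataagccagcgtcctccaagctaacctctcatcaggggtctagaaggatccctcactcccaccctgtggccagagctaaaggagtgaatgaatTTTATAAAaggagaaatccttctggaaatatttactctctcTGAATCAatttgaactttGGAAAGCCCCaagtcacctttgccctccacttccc
Ccl3 (no capital match, chr11:83649379-83649628, - strand): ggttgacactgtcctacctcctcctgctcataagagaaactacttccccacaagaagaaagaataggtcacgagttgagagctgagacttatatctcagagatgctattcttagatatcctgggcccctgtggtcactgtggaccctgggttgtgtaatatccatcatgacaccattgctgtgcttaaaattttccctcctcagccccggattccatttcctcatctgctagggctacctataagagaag

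Cxcl10 was the only 1 of the 7 promoters with the interferon response core, at positions -213 to -204 from the start site, a match found in 2.98% of 32851 mouse promoters of this length. Cxcl10 also held an AP-1 match (6.75% of promoters) at -74 to -68 and NF-kB matches (7.25% of promoters) near -159 and -104, where 2 of them overlap. The NF-kB consensus was matched in 4 of the 7 (Ccl1, Ccl9, Ccl20 and Cxcl10). Ccl9 was the only one with TATAAA (12.4% of promoters), and it shared the AP-1 match with Cxcl10. No promoter of the 7 held the STAT motif TTCNNNGAA, which occurs in 7.02% of promoters. The short NFAT core GGAAA, left in lower case above, was in 6 of the 7 and in 55.6% of all promoters, and it can lie inside an NF-kB match. These are matches of letters, not measured binding.

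Ccl3, Ccl4 and Xcl1 made up nearly all of the chemokine RNA. Together they held 96.6% to 98.5% of the reads of the 10 genes in every library, and the 10 held 99.4% to 99.8% of the reads of all chemokine ligand genes on the list. Of all reads in a library, the 10 took 0.768% and 0.789% in knockout cells, against 0.966% and 0.912% in control cells. With blockade the 10 took 0.249% and 0.260%, against 1.03% and 0.999% in untreated cells. Chemokine RNA was thus a smaller part of the library in knockout than in control cells, and the gap between blocked and untreated cells was the wider one.

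CCL3 (MIP-1 alpha) and CCL4 (MIP-1 beta) are closely related chemokines that T cells release soon after antigen contact. Ccl3 had 44378 and 43820.1 normalised reads in knockout libraries, against 67146 and 64445 in control libraries. It had 10070.2 and 11204 in blocked libraries, against 77761 and 75397 in untreated ones. Knockout and control libraries were clearly apart, and the gap between blocked and untreated libraries was far wider. Ccl3 fell by 33.0% in the knockout (log2 fold change -0.58, SE 0.026, adjusted p = 2.62e-05) and was 7.20-fold lower with blockade (log2 fold change -2.85, SE 0.055, adjusted p = 3.75e-18). The difference of the 2 log2 effects, knockout minus blockade, was 2.27 (SE 0.068, adjusted p = 1.10e-10).

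Ccl4 had 21541 and 23360.4 normalised reads in knockout libraries, against 32214 and 30319.9 in control libraries. Blocked libraries held 10100.8 and 10281 of Ccl4, against 45811 and 44389 in untreated ones. As for Ccl3, neither pair of groups overlapped. The decrease of Ccl4 was 28.2% in the knockout (log2 fold change -0.48, SE 0.047, adjusted p = 0.000394) and 4.43-fold with blockade (log2 fold change -2.15, SE 0.049, adjusted p = 2.91e-17). The ratio of Ccl3 to Ccl4 reads was 2.06 and 1.88 in knockout libraries and 2.08 and 2.13 in control libraries. With blockade that ratio was 0.997 and 1.09, against 1.70 in each untreated library, so the decrease of Ccl3 was the larger one in both blocked libraries. The ratio itself was not tested.

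CCL5 (RANTES) is made in large amounts by effector and memory T cells. Ccl5 had 1078 and 1137 normalised reads in knockout libraries, against 1589 and 1503 in control libraries. It had 773 and 790.2 in blocked libraries, against 1572 and 1460.4 in untreated ones. Ccl5 fell in each, with log2 fold changes of -0.48 in the knockout (SE 0.046, adjusted p = 0.000353) and -0.95 with blockade (SE 0.063, adjusted p = 1.63e-10). Its effects were the closest of the 10 between the experiments, with a difference of 0.47 (SE 0.076, adjusted p = 0.000319).

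Ccl9, which encodes a ligand of CCR1 found in rodents, was far less abundant and changed more. It stood at 214 and 231 normalised reads in knockout libraries, against 395 and 347 in control libraries. Blocked libraries held 56.3 and 48.9, against 661 and 565 in untreated ones. Ccl9 was 1.67-fold lower in the knockout (log2 fold change -0.73, SE 0.083, adjusted p = 0.000703) and was 11.7-fold lower with blockade (log2 fold change -3.52, SE 0.12, adjusted p = 1.14e-14).

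XCL1 (lymphotactin) attracts the cross-presenting dendritic cells that carry XCR1. Xcl1 had 33884 and 35321 normalised reads in knockout libraries, against 28175 and 25307 in control libraries. It had 18917 and 19664 in blocked libraries, against 50699 and 47354 in untreated ones. Both knockout libraries lay above both control libraries, and both blocked libraries lay below both untreated ones. Xcl1 rose by 29.4% in the knockout (log2 fold change 0.37, SE 0.052, adjusted p = 0.00158) and was 2.54-fold lower with blockade (log2 fold change -1.35, SE 0.052, adjusted p = 6.16e-14). The difference of these effects was 1.72 (SE 0.074, adjusted p = 2.93e-09). The rise did not pass the test without knockout replicate 1 (adjusted p = 0.0556) or without knockout replicate 2 (adjusted p = 0.0711).

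Xcl1 lies within Gm20743, a transcript on the opposite strand, and the sources used here do not say whether reads were counted by strand. Gm20743 held 771 and 730.3 normalised reads in knockout libraries, against 837 and 903 in control libraries, a direction opposite to that of Xcl1. With blockade Gm20743 held 936 and 768, against 2370 and 2287 in untreated libraries. The ratio of Xcl1 to Ccl3 reads was 0.764 and 0.806 in knockout libraries, against 0.420 and 0.393 in control libraries. It was 1.88 and 1.76 in blocked libraries, against 0.652 and 0.628 in untreated ones. In each experiment, then, Xcl1 gained ground on Ccl3, through a rise of Xcl1 and a fall of Ccl3 in the knockout and through a smaller fall of Xcl1 with blockade.

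**Figure D2:**
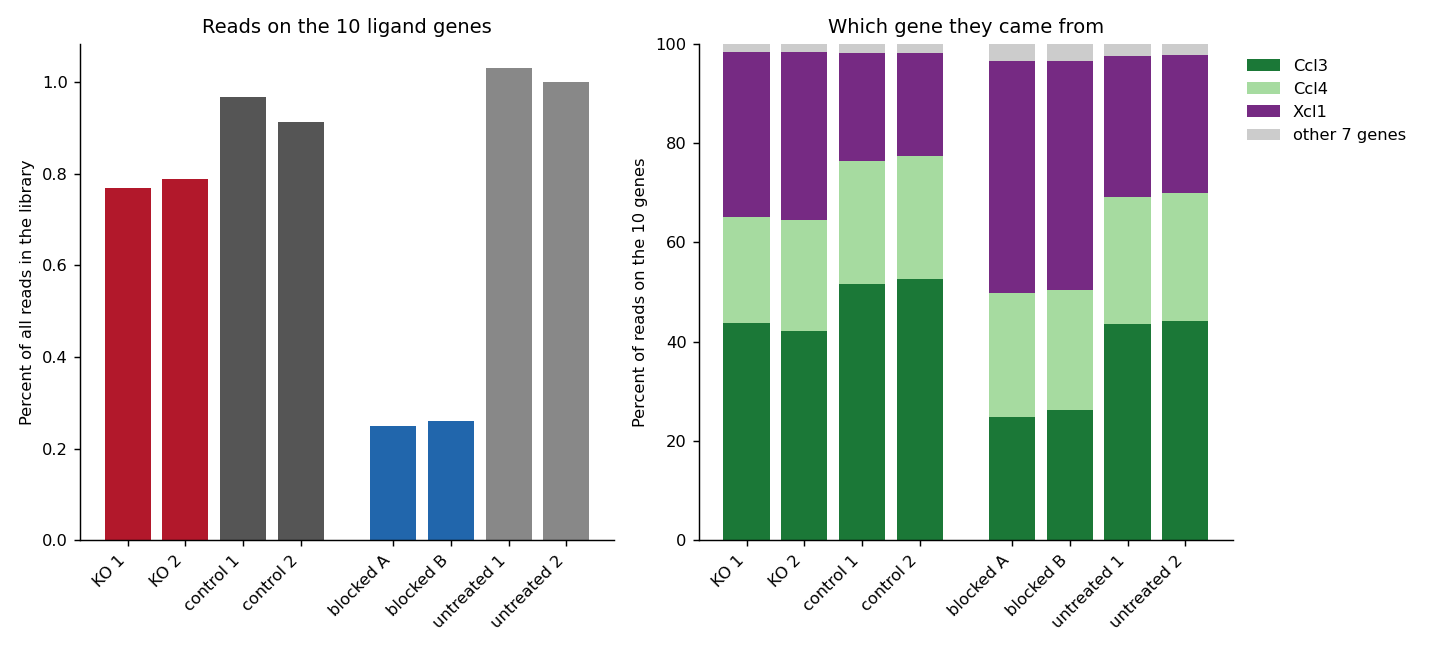
Left, percent of all reads in each library that fell on the 10 chemokine ligand genes, lowest in the blocked libraries at 0.249% and 0.260%. Right, share of the reads of the 10 chemokine ligand genes (percent) taken by Ccl3, Ccl4, Xcl1 and the other 7 genes in each library. Xcl1 took 33.4% and 33.9% in knockout and 21.7% and 20.7% in control libraries, and 46.7% and 46.2% in blocked and 28.4% and 27.7% in untreated libraries.

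CCL1 is the ligand of CCR8, a receptor of activated T cells. Ccl1 had 146 and 142 normalised reads in knockout libraries, against 98.4 and 74.0 in control libraries. It had 324 and 395 in blocked libraries, against 1056 and 993 in untreated ones. Ccl1 rose by 67.0% in the knockout (log2 fold change 0.75, SE 0.14, adjusted p = 0.00566) and was 2.85-fold lower with blockade (log2 fold change -1.52, SE 0.087, adjusted p = 1.83e-11). The 2 log2 effects differed by 2.26 (SE 0.18, adjusted p = 7.03e-07). As for Xcl1, leaving out knockout replicate 1 (adjusted p = 0.105) or knockout replicate 2 (adjusted p = 0.0964) ended the call. With no filter on low values its adjusted p was 0.0686.

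CCL20, the ligand of CCR6, is known for drawing IL-17 producing T cells and dendritic cells to epithelia. Ccl20 had 9.85 and 4.90 normalised reads in knockout libraries, against 55.8 in each control library. It had 26.7 and 24.0 in blocked libraries, against 533 and 515 in untreated ones. In the knockout Ccl20 rested on 10 and 5 recovered reads, and it entered the test only through the control libraries. Its log2 fold change was -2.83 in the knockout (SE 0.31, adjusted p = 0.000604) and -4.32 with blockade (SE 0.14, adjusted p = 3.14e-15). Blockade left Ccl20 at a level 20.7-fold lower, the largest decrease among the 10.

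CCL22 draws cells with CCR4, among them regulatory T cells, and is made mainly by dendritic cells and macrophages. Ccl22 was barely detected, with 7.88 and 15.7 normalised reads in knockout libraries, against 8.11 and 11.2 in control libraries. It had 7.64 and 7.67 in blocked libraries, against 20.8 and 18.5 in untreated ones. Knockout and control libraries overlapped (log2 fold change 0.21, SE 0.38, adjusted p = 0.652), and a change this small was not detectable at counts of 8 to 16 reads. With blockade the log2 fold change of Ccl22 was -1.25 (SE 0.36, adjusted p = 0.00600). Ccl22 entered that test only through the untreated libraries and did not pass with DESeq2 (adjusted p = 0.0925).

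CXCL10 (IP-10) is the interferon-induced ligand of CXCR3. Cxcl10 had 24.6 and 23.5 normalised reads in knockout libraries, against 122 and 115 in control libraries. It had 146 and 159 in blocked libraries, against 197 and 210.1 in untreated ones. Knockout libraries lay well below control libraries, whereas blocked libraries lay only a little below untreated ones. The decrease was 4.91-fold in the knockout (log2 fold change -2.25, SE 0.12, adjusted p = 4.00e-05) and 1.34-fold with blockade (log2 fold change -0.42, SE 0.12, adjusted p = 0.00467). The call with blockade was lost with DESeq2 (adjusted p = 0.0502). Cxcl10 was the only one of the 10 that fell more in the knockout, with a difference of effects of -1.83 (SE 0.18, adjusted p = 4.02e-06).

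CXCL16 is made as a membrane protein that binds CXCR6 and can be shed from the cell surface. Cxcl16 had 71.9 and 69.6 normalised reads in knockout libraries, against 77.1 and 82.1 in control libraries. It had 55.4 and 33.6 in blocked libraries, against 149 and 157 in untreated ones. Knockout libraries lay below control libraries without overlap, but the difference did not pass the test (log2 fold change -0.17, SE 0.10, adjusted p = 0.194). With blockade Cxcl16 was 3.43-fold lower (log2 fold change -1.80, SE 0.20, adjusted p = 2.14e-07). Its gene overlaps Zmynd15 on the other strand, which held 9.80 to 37.4 normalised reads over the 8 libraries.

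The effects of the knockout and of IL-2 blockade differed for 10 of the 10 genes in a fit of all 8 libraries, where 41.7% of the 12428 genes tested in both tables differed. For 9 of them the knockout effect was the higher one, against 24.7% of all genes, and for Cxcl10 it was the lower one, against 17.0% of all genes. The 2 experiments share no library. The median difference of the 10 was 1.65, against 0.053 over all genes tested. Ccl22 had the weakest evidence, with a difference of 1.46 (SE 0.54, adjusted p = 0.0468), and its call was lost on leaving out any 1 of 7 of the libraries (adjusted p from 0.0608 to 0.187). Differences for Ccl4, Ccl9, Ccl20 and Cxcl16 were 1.67 (SE 0.064), 2.79 (SE 0.15), 1.49 (SE 0.34) and 1.63 (SE 0.28).

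**Figure D3:**
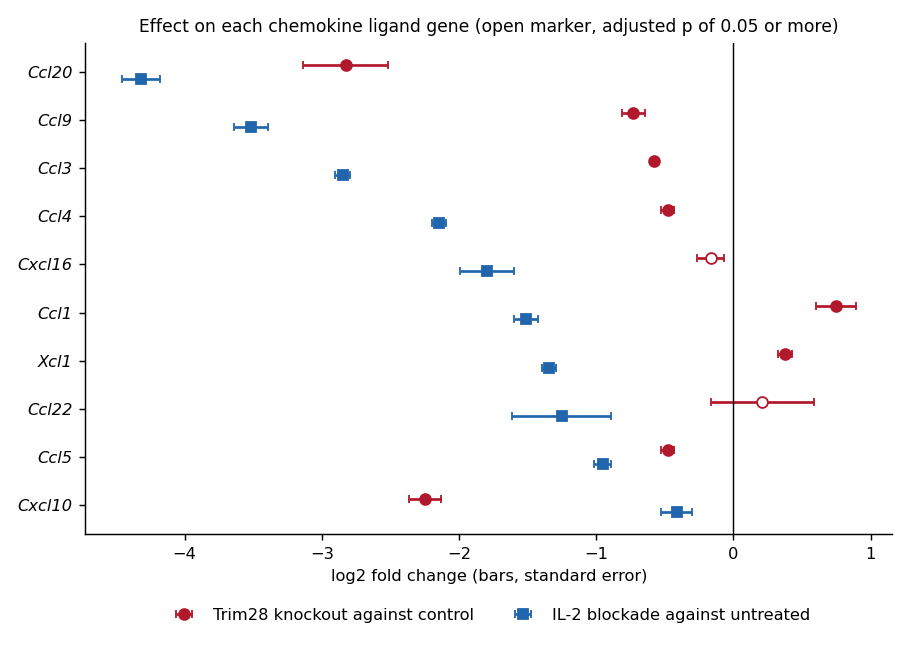
Log2 fold change (points, with standard error bars) of the 10 chemokine ligand genes in Trim28 knockout against control cells (red circles) and with IL-2 blockade against untreated cells (blue squares), ordered by the blockade effect. Open markers have an adjusted p of 0.05 or more. Red lies to the right of blue for 9 genes and to the left for Cxcl10, at -2.25 against -0.42.

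Levels of different genes can be set side by side once divided by exon length, as reads per kilobase of exon scaled to the library total (RPKM). The length was the union of exons over all annotated transcripts of a gene, such as 2369 bases over 3 transcripts for Ccl1. Close ranks can depend on that choice, and other lengths were not tried. In knockout cells the order of mean RPKM was Xcl1 (5013), Ccl3 (4362), Ccl4 (2577), Ccl5 (87.4), Ccl9 (5.54), Ccl1 (4.60), Cxcl16 (1.77), Cxcl10 (0.810), Ccl20 (0.393) and Ccl22 (0.384), and only the libraries of Ccl20 and Ccl22 overlapped. In control cells it was Ccl3 (6399), Xcl1 (3809), Ccl4 (3529), Ccl5 (120), Ccl9 (9.07), Cxcl10 (3.91), Ccl20 (2.92), Ccl1 (2.71), Cxcl16 (1.96) and Ccl22 (0.309), with overlap between Xcl1 and Ccl4 and between Ccl20 and Ccl1. Xcl1 was thus the leading ligand per length in knockout cells and Ccl3 in control cells.

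In blocked cells the order was Xcl1 (2260), Ccl4 (946), Ccl3 (851), Ccl5 (49.9), Ccl1 (9.29), Cxcl10 (4.15), Ccl20 (1.09), Ccl9 (1.06), Cxcl16 (0.903) and Ccl22 (0.202), with overlap between Ccl20 and Ccl9 and between Ccl9 and Cxcl16. In untreated cells it was Ccl3 (5808), Xcl1 (5445), Ccl4 (3970), Ccl5 (91.8), Ccl1 (25.1), Ccl20 (21.4), Ccl9 (11.7), Cxcl10 (5.26), Cxcl16 (2.93) and Ccl22 (0.491), with no overlap between neighbours. Xcl1 led in blocked cells as well, and Ccl3 led in untreated cells. Ccl1 and Ccl20 had far lower RPKM in the control cells of the first experiment than in the untreated cells of the second. The experiments were scaled apart and that gap was not tested.

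Of the 10 genes, 4 lie in one stretch of chromosome 11 (GENCODE M21 annotation on GRCm38): Ccl5 at chr11:83525778-83530518, Ccl9 at chr11:83572919-83578636 and Ccl3 at chr11:83647844-83649355 on the minus strand, and Ccl4 at chr11:83662584-83664683 on the plus strand. Ccl3 and Ccl4 are 13.2 kb apart, Ccl9 and Ccl3 69.2 kb, and Ccl5 and Ccl9 42.4 kb. These 4 fell by similar amounts in the knockout, from -0.48 to -0.73 on the log2 scale. With blockade they ranged from -0.95 for Ccl5 to -3.52 for Ccl9, so neighbours in the cluster fell by unequal amounts.

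Heatr9, the tested gene next to Ccl5, had 13.8 and 9.80 normalised reads in knockout libraries, against 33.5 and 32.4 in control libraries (log2 fold change -1.43, SE 0.22, adjusted p = 0.00237). It had 15.3 and 16.3 in blocked libraries, against 38.5 and 26.8 in untreated ones (log2 fold change -0.98, SE 0.29, adjusted p = 0.00711). Taf15, a broadly expressed RNA-binding protein gene on the far side of Heatr9, had log2 fold changes of 0.18 in the knockout (adjusted p = 0.0187) and 0.090 with blockade (adjusted p = 0.215). Of 23 other genes tested within 100 kb of any of the 10, 9 rose and 6 fell in the knockout, with a median log2 fold change of -0.014. With blockade 7 of 24 rose and 11 fell, with a median of -0.026. Over all genes tested, 32.9% rose and 28.2% fell in the knockout, and 31.4% rose and 28.9% fell with blockade. Neighbours that changed by at least 2-fold were Heatr9 and Cxcl9 in the knockout (each lower), and with blockade Cxcl9, Cx3cl1, Zmynd15 and Gm20743 (each lower) and Gm32569 (higher). Of these, Cxcl9 in each comparison and Cx3cl1 reached the filter only through the control or untreated libraries, and Gm32569 only through the blocked ones. Heatr9 in the knockout also needed the control libraries, since a knockout library (9.80) lay under the filter's value of 10.

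**Figure D4:**
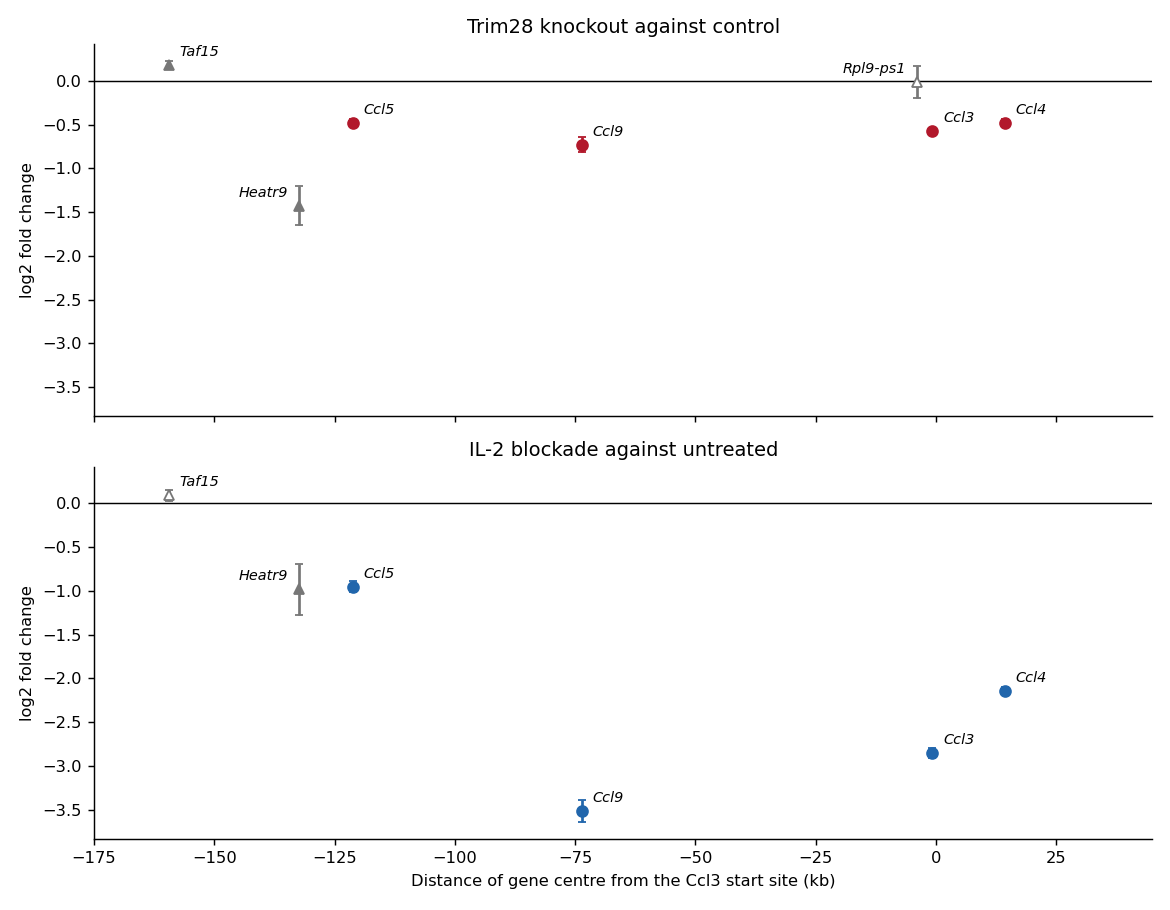
Log2 fold change (with standard error bars) against the distance of each gene's centre from the Ccl3 start site (kb, in chromosome order), for the 4 clustered chemokine ligand genes (circles) and the other tested genes of the stretch (grey triangles, open where not called). The 4 ligands lie between -0.48 and -0.73 in the knockout (top) and between -0.95 and -3.52 with blockade (bottom), while Taf15 lies at 0.18 and 0.090.

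The other 6 genes lie apart: Ccl1 (chr11:82176657-82305690, minus strand) and Cxcl16 (chr11:70453983-70459984, minus) on the same chromosome, Ccl20 (chr1:83116766-83119167, plus) and Xcl1 (chr1:164931644-164935527, minus) on chromosome 1, Cxcl10 (chr5:92346638-92348889, minus) on chromosome 5 and Ccl22 (chr8:94745590-94751699, plus) on chromosome 8. Cxcl9, the neighbour of Cxcl10 at a distance of 18.6 kb, encodes another interferon-induced ligand of CXCR3. Cxcl9 had 6.89 and 4.90 normalised reads in knockout libraries, against 56.8 and 48.7 in control libraries (log2 fold change -2.97, SE 0.23, adjusted p = 0.000161). It had 5.73 and 1.92 in blocked libraries, against 17.7 and 14.4 in untreated ones (log2 fold change -1.94, SE 0.49, adjusted p = 0.00210).

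Most of the rest of the chemokine ligand family was scarcely present, with Ccl25 the highest. Ccl25 had 79.8 and 80.4 normalised reads in knockout libraries, against 105 and 97.3 in control libraries. It had 179 and 147 in blocked libraries, against 187 and 200 in untreated ones, and lay above Cxcl16 in every library. Of 31 other ligand genes on the list, 30 were in the tables, 12 and 11 of them at 0 in all 4 libraries of the knockout and the blockade table, and 5 passed the filter in each. In the knockout 5 of these 5 were called lower, of which 1 (Cxcl9) reached the filter only through the control libraries. Cx3cl1 also needed them, with 7.88 and 11.8 in knockout libraries against 18.3 and 20.3 in control libraries. With blockade 4 of 5 were called lower, of which 3 (Cxcl2, Cx3cl1 and Cxcl9) reached it only through the untreated libraries, so these counts say little about direction. Cxcl2, a neutrophil attractant, had log2 fold changes of -1.26 in the knockout (SE 0.22, adjusted p = 0.00371) and -2.09 with blockade (SE 0.31, adjusted p = 1.02e-05), where it stood at 7.64 and 9.59 in blocked libraries against 43.6 and 36.0 in untreated ones. Ccl27a, a ligand of CCR10, had -0.64 (SE 0.13, adjusted p = 0.00724) and -1.56 (SE 0.25, adjusted p = 2.27e-05) in the same comparisons.

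The receptors for these ligands moved in both directions. Of 10 receptor genes on the list 8 were tested, and 5 rose and 2 fell in the knockout, while 2 rose and 6 fell with blockade. Of these 8, 1 reached the filter only through the knockout libraries (Ccr8), 1 only through the control libraries (Ccr1) and 3 only through the untreated libraries. Over all genes tested, 32.9% rose and 28.2% fell in the knockout, and 31.4% rose and 28.9% fell with blockade. Ccr6, the receptor of CCL20, rose in each experiment while Ccl20 fell. Ccr6 had 326 and 315 normalised reads in knockout libraries against 47.7 and 39.5 in control libraries (log2 fold change 2.85, SE 0.11), and 647 and 586 in blocked libraries against 152 and 149 in untreated ones (log2 fold change 2.03, SE 0.094). Ccr8, the receptor of CCL1, had 114 and 116 normalised reads in knockout libraries against 8.11 and 9.12 in control libraries, and 212 in each blocked library against 63.4 and 40.2 in untreated ones. Its log2 fold changes were 3.59 in the knockout (SE 0.15) and 2.05 with blockade (SE 0.18). Adjusted p-values of Ccr6 were 1.92e-05 and 8.26e-13, and those of Ccr8 were 2.17e-05 and 8.40e-09. Ccr4, the receptor of CCL22, rose in the knockout (log2 fold change 1.19, SE 0.076, adjusted p = 8.19e-05) and fell with blockade (-0.64, SE 0.097, adjusted p = 1.17e-05). Cxcr3, the receptor of CXCL10, had log2 fold changes of 0.19 in the knockout (adjusted p = 0.0204) and -2.11 with blockade (adjusted p = 7.91e-15).

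Transcription factors known to act at chemokine promoters were tested as a list of 22, of which 6 rose and 14 fell in the knockout and 3 rose and 17 fell with blockade. The median log2 fold changes of the list were -0.51 and -0.59, against 0.031 and 0.018 over all genes tested. Of all genes tested, 32.9% rose and 28.2% fell in the knockout, and 31.4% rose and 28.9% fell with blockade. By smallest adjusted p, the genes were Stat4 (-1.08, SE 0.028), Stat5a (0.69, SE 0.024), Runx3 (-0.77, SE 0.031) and Klf13 (-0.97, SE 0.039) in the knockout. With blockade they were Tbx21, the gene of T-bet (-1.65, SE 0.057), Irf7 (-2.56, SE 0.096), Runx3 (-1.29, SE 0.053) and Irf8 (-1.14, SE 0.049). KLF13 and RUNX3 are known for their part in Ccl5 expression in T cells. The adjusted p-values of these 8 results were at most 2.14e-05.

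Among interferon-induced genes, the class to which Cxcl10 belongs, 2 rose and 18 fell of 21 tested in the knockout, and 5 rose and 15 fell of 22 tested with blockade. Over all genes tested, 32.9% rose and 28.2% fell in the knockout, and 31.4% rose and 28.9% fell with blockade. Of the 21 interferon-induced genes, 5 (Mx2, Rsad2, Oasl1, Ifit1 and Oas1a) reached the filter only through the control libraries, and of the 22, 1 (Oas1a) only through the untreated libraries. Mx1 in the knockout (6.89 and 10.8) and Usp18 with blockade (9.55 and 10.5) also needed the control or untreated libraries to pass. For all of these the filter favoured a fall. The median log2 fold change of the list was -1.83 in the knockout and -1.07 with blockade. Gbp2, a guanylate-binding protein gene, had log2 fold changes of -2.47 in the knockout (SE 0.033, adjusted p = 1.82e-06) and -2.24 with blockade (SE 0.048, adjusted p = 1.26e-17). Next by adjusted p in the knockout were Ifih1 (-2.99, and 0.19 with blockade), Iigp1 (-2.25, and -2.68 with blockade) and Igtp (-1.24, and -2.17 with blockade). Genes of the list thus differed in which effect was the larger. Ifng, the gene of interferon gamma, had 3147 and 3317 normalised reads in knockout libraries against 16925 and 16658 in control libraries, and 362 and 375 in blocked libraries against 15659 and 15030.1 in untreated ones. Ifng thus fell further with blockade than in the knockout, in contrast to Cxcl10, with a difference of effects of 3.00 (SE 0.058, adjusted p = 3.68e-12).

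Of 10 genes whose proteins carry, anchor or cut chemokines 9 were tested, with 2 higher and 5 lower in the knockout and 6 higher and 1 lower with blockade. Srgn, the gene of the granule proteoglycan serglycin, which binds chemokines, had 14500 and 15479 normalised reads in blocked libraries, against 32193 and 30732 in untreated ones (log2 fold change -1.07, SE 0.052, adjusted p = 1.46e-12). Next by adjusted p with blockade were Sdc4, a syndecan gene (log2 fold change 0.92, SE 0.098, adjusted p = 1.43e-07), and Ndst1, the gene of a heparan sulfate enzyme (0.64, SE 0.070, adjusted p = 2.16e-07), each of them higher. Dpp4, the gene of a protease that trims the ends of several chemokines, fell in the knockout (log2 fold change -0.62, SE 0.042, adjusted p = 9.85e-05) and rose with blockade (0.22, SE 0.051, adjusted p = 0.00127). Adam10, the gene of a protease that can shed CXCL16, fell in the knockout (-0.38, SE 0.031, adjusted p = 0.000184) and did not pass with blockade (0.040, SE 0.050, adjusted p = 0.514). Of 20 genes of signalling below chemokine receptors, 7 rose and 7 fell in the knockout and 5 rose and 9 fell with blockade, with medians of -0.018 and -0.063. Beside both lists, 32.9% of all genes tested rose and 28.2% fell in the knockout, and 31.4% rose and 28.9% fell with blockade.

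Several ligands here are also made by myeloid and dendritic cells. The summed markers of each were lower in knockout and blocked cells, but single genes held most of the sums. The 11 myeloid markers summed to 148 to 155 normalised reads in knockout libraries, against 254 to 296 in control libraries, and to 101 to 109 in blocked libraries, against 353 to 371 in untreated ones. Cd68 held most of the myeloid sum, with 125 and 127 in knockout libraries against 222 and 208 in control libraries. With blockade it had 72.6 and 66.2, against 326 and 339 in untreated libraries. Cd68 was the 1 marker called of 3 tested in the knockout and of 2 tested with blockade (log2 fold changes -0.76 and -2.25). Other myeloid markers were low and did not all fall with blockade. Lyz2 had 5.73 and 6.71 in blocked libraries against 2.08 and 4.12, while Itgam had 5.73 and 9.59 against 11.4 and 10.3. The control libraries were uneven, with Lyz2 at 8.11 in control library 1 and 45.6 in control library 2, against 4.92 and 11.8 in knockout libraries. Csf1r (4.06 and 18.2) and the stromal marker Col1a1 (90.3 and 190) were also higher in control library 2. Adgre1, Ly6g, S100a8 and S100a9 were at 0 in all knockout and control libraries, and Fcgr1 was at 0 in all blocked and untreated ones. The 8 dendritic cell markers summed to 603 to 615 in knockout libraries against 780.0 to 784 in control libraries, and to 480 to 491 in blocked libraries against 900.1 to 904 in untreated ones. Of these, H2-Ab1 and Zbtb46 held most of the reads and went in opposite directions (log2 fold changes -1.65 and 1.44 in the knockout, -4.96 and 1.50 with blockade), while Siglech and Cd209a were at 0 in all 8 libraries. The part of such cells, or of any other cell type listed, in the changes of the chemokine ligands was not tested.

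Genes whose pattern lay closest to that of a ligand were found by the root mean square difference over the 8 libraries of log2 values, each taken relative to the control or untreated mean of its table, among 12428 genes. The nearest 2 were Gpr18 (0.111) and Ltb (0.121) for Ccl1, Rragd (0.116) and Tbkbp1 (0.128) for Ccl3, and Id2 (0.0682) and Rgs16 (0.0741) for Ccl4. For Ccl9 they were Fxyd7 (0.118) and Adgrg5 (0.146), and for Ccl20 Dnm1 (0.241) and Espn (0.248). Ccl22 had Prrt1 (0.195) and Gprc5a (0.220), and Xcl1 had Axl (0.0710) and Sytl3 (0.107). Gas2 (0.116) and Serpine2 (0.120) lay nearest to Cxcl10, and Mfrp (0.116) and Gm8756 (0.159) to Cxcl16. Ptov1 (0.0405) and Bag3 (0.0415) lay nearest to Ccl5, the smallest differences among the 10, and those for Ccl20 and Ccl22 were the largest.

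In the authors' deposited table, whose fold changes run control over knockout and untreated over blocked, 8 of the 10 ligand genes had an adjusted p under 0.05 in each comparison. The 2 above it for the knockout were Ccl22 (0.873) and Cxcl16 (0.742), and in the authors' deposited table for blockade they were Ccl22 (0.167) and Cxcl10 (0.116).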

How the data were processed

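The submitters' processing notes name the mm10 build and, with no role or order, DESeq2, StringTie 2.1.4, HISAT2 2.2.1 and Trim Galore 0.4.4. The read counter, annotation, strand setting and filters are not given in the sources used here. Per the file headers and values, the authors deposited a normalised signal, in which the count of a gene had been scaled by a DESeq2 size factor per library, separately for the 2 experiments. The authors also deposited log2 fold changes, a test statistic (a score) and p-values, used only where named. Low values showed what 1 read was worth in a library, which gave back whole reads for 100% of values (tolerance 0.01), and their sums are the depths given. The 10 ligand genes and all lists were chosen with earlier results of these data known.

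A gene was tested when 2 or more libraries reached a value of 10, on log2 (value + 1), with limma 3.58.1 (empirical Bayes, trend option) in R 4.3.3, each experiment alone, and the difference of effects in 1 fit of all 8 libraries. P-values were adjusted over all genes tested by the method of Benjamini and Hochberg. The columns of the blocked libraries are named antiil2 and antiil2r, carry no replicate number and are called A and B. The sample titles give both as replicates of the anti-IL-2 treatment, and the final r is not explained. Replicates differed by more than sampling noise in every group (chi-square per gene from 1.32 in untreated to 3.87 in blocked libraries). Named genes were the 10 ligands, Trim28, the first genes of each list by adjusted p (at most 4), the 2 nearest in pattern, and neighbours within 100 kb that changed by at least 2-fold. Ifng, Cd8a, Cd4, Taf15, the genes nearest Ccl5, and Dpp4, Adam10 and Ifih1 with blockade were named outside this rule, with their values known. The same holds for markers or list genes at or under the filter. The script was tested on simulated data. Alternatives were other pseudocounts, filters and scalings, edgeR 4.0.16 and DESeq2 1.42.0 on recovered reads, 1 fit of all libraries, a replicate block and leaving out each library. Some receptor and marker genes are not reported here.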

Additional observations from a re-analysis of the deposited data

How the results depend on the processing

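Of 392 recomputed results for the 10 ligand genes, 377 kept their direction and their side of the threshold, 15 kept only their direction and 0 reversed. Besides the losses given above for Ccl1, Xcl1, Cxcl10 and Ccl22, the difference of effects for Ccl22 was lost with a pseudocount of 0.5 (adjusted p = 0.0522). The number of ligand genes that rose in the knockout was 1 with no filter and from 0 to 2 when a library was left out, and 0 without knockout replicate 1 or knockout replicate 2. The number that fell in the knockout was 5 without either control library, since Ccl20 then missed the filter and was not tested. The number that fell with blockade was 8 with DESeq2 and 9 without either untreated library, where Ccl22 missed the filter. DESeq2 called 2846 genes higher and 2660 lower in the knockout, and leaving out a library gave 3336 to 4704 higher and 2977 to 3544 lower, against 5065 and 4344 in the reported fit. The causes were not tested. With a replicate block for the shared numbers, 4881 genes rose and 4197 fell, including 2 and 6 of the ligand genes. Same-numbered knockout and control libraries did not deviate together (correlation 0.013 over 15415 genes). The labels do not say whether the numbers pair them, and a low correlation cannot exclude pairing with small shared effects. No paired analysis was possible for blockade because the columns of the blocked libraries carry no number. With 2 libraries per group, changes in Ccl22 and Ccl20 rest on few reads.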
